A study of Mus musculus with 21 samples.

Results

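Chemokines and interleukins, together with their receptors, were examined in keratinocytes sorted from mice with a doxycycline-inducible p16 transgene in the epidermis. Members were chosen by gene name alone, as every entry whose symbol began with Ccl, Cxcl, Cx3cl, Xcl, Ccr, Cxcr or Il and a digit, plus Csf1, Csf2, Csf3 and Tslp. This gave 149 entries under 141 symbols, of 22050 entries in the table. Mice of the p16 group carried K5-rtTA, tet-p16 and tet-GFP and those of the control group K5-rtTA and tet-GFP, with 4 samples in each, all on a mixed FVB, C57Bl and 129sv background and all given doxycycline from 3 weeks of age for 6 months. Both groups thus carried the rtTA driver and the GFP reporter and received the drug, and differed in the tet-p16 allele, which encodes human p16. The K5 promoter was used to drive rtTA, and so the transgenes, in the basal epidermis. Markers of other cell types, given below, were also read in the sorted pools. Each sample held 80000 GFP+ dorsal skin cells pooled from 3 mice, after removal of cells stained for CD45, CD31 or CD140a, so a value is an average over cells and animals. A second profiling with 13 samples was not analysed here.

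Chemokines are small secreted proteins that draw leukocytes along a gradient through G protein-coupled receptors, and interleukins are secreted signals read by receptors of several families. Keratinocytes are known both to secrete a set of them and to carry receptors for signals made by immune cells, such as the IL-17, IL-4, IL-31 and IL-20 families. Because many of these receptors need a pair of chains, the presence of one chain in RNA does not say that the receptor is complete.

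The libraries held between 1760953 and 3414362 reads on genes in control samples and between 2884544 and 3202975 in p16 samples. Values below are normalized read counts, that is reads divided by a size factor for each library, and 1 read was worth 0.742 to 1.53 units. Reads came from transcript 3' ends and were not divided by gene length, so an order of members by value is an order of reads and not of transcripts. The human p16 transgene had 1 to 3 reads in control samples and 13, 18 and 9 reads in p16 replicates 2 to 4, while the library labelled p16 replicate 1 had 2, inside the control range. Values without that library are therefore given for each member that passed the test. All 10 keratinocyte markers were read and none passed the test. Of 9 fibroblast markers 5 exceeded 3 reads in some sample, and they moved both ways, with Dcn at 2.6 to 10.7 in control and 36.2 to 203 in p16 samples (called higher, log2 fold change 3.82, limma adjusted p = 0.000233) and Vim, which many cell types express, at 25.9 to 89.0 and 5.8 to 20.3 (called lower, log2 fold change -2.20, limma adjusted p = 0.00422). Lum was at 0, the list summed to between 36.7 and 116 in control and between 48.6 and 231 in p16 samples, and its part in the results below was not tested. Pan-leukocyte Ptprc reached at most 1.6, and the macrophage markers Lyz2, C1qb and Mrc1 and the T cell markers Cd8a and Gzmb were at 0 in every sample. The pan-leukocyte list summed to between 209 and 352 in control and between 388 and 539 in p16 samples, most of it from Arhgdib, which was called higher (192.5 to 338.8 and 377.7 to 520.5). Summed T cell markers ran from 19.3 to 21.9 in control and from 6.3 to 19.5 in p16 samples, and summed macrophage markers from 15.5 to 26.0 and from 17.6 to 29.0. Of 10 hair follicle markers, 5 were called lower in p16 samples (Cd34, Sox9, Krt15, Krt75 and Lhx2), and the list summed to between 21889 and 31705 in control and between 18842 and 21460 in p16 samples. In such bulk samples fewer cells of a type and less RNA per cell cannot be told apart.

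Most members stayed at 3 reads or fewer in these cells. More than 3 reads in at least 1 sample were seen for 65 of the 149 entries, 33 had 1 to 3 reads at most and 51 were at 0 in all 8 samples. Of these 51 entries, 13 carry a symbol that more than 1 entry holds (Ccl19, Ccl21a, Ccl21b, Ccl21c, Ccl27a and Il11ra2, on chromosome 4 or unplaced scaffolds), so how reads of such near-identical copies were assigned is uncertain, and a 0 there is not a measured absence. Entries at 3 reads or fewer in every sample made up 56.4% of the family (52.2% without those 13) and 42.8% of all entries. A level that could be followed in every library, defined as a read in each sample and a mean of 10 or more, was reached by 43 members, of which 22 were ligands or antagonists and 21 receptors. The 3-read limit stood at 2.23 to 4.58 units depending on the library and covers counting error only. In the control group 59 entries exceeded it and in the p16 group 62, with control replicates 2 and 4 the smallest libraries.

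**Figure D1:**
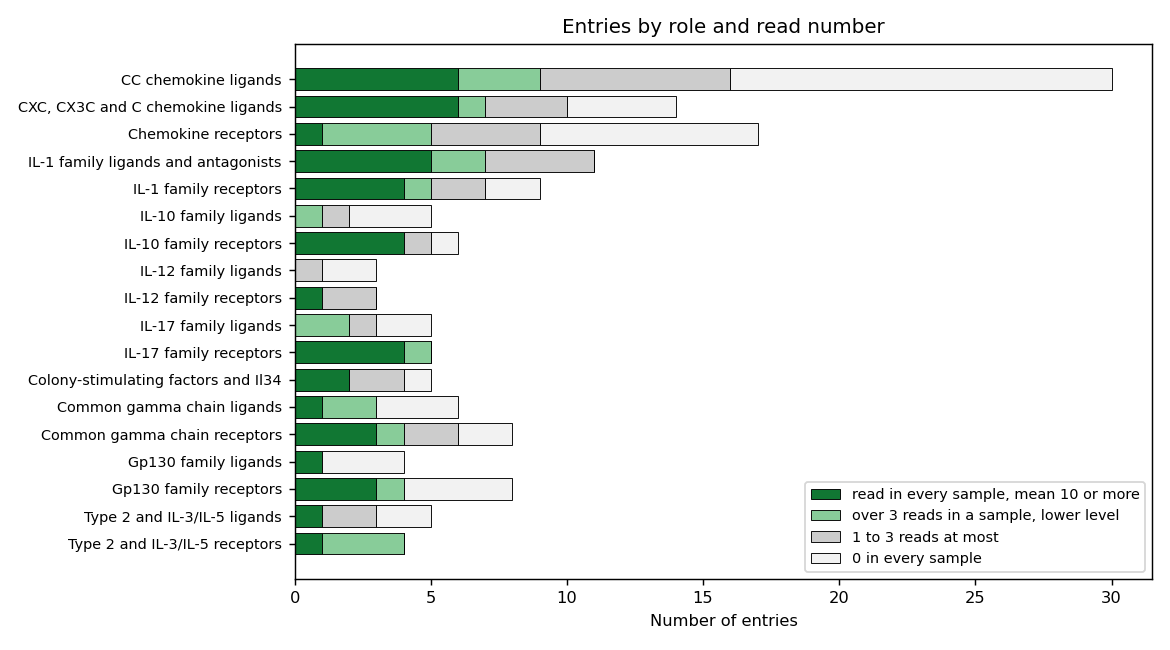
Number of entries (horizontal axis) in each role of the family, split by read number. Every entry exceeded 3 reads in some sample among the 5 IL-17 receptors and the 4 receptors of the type 2 and IL-3/IL-5 group, whereas only 5 of the 17 chemokine receptors did.

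By role, all 5 IL-17 receptor chains exceeded the limit in some sample. The matching IL-17 ligands were near absent, with Il17a and Il17c at 0, Il17f at 3 reads or fewer, and Il17b and Il17d low. Of 17 chemokine receptors only Cxcr2 reached the higher level, and 8 were at 0. The IL-12 family ligands Il12a and Il12b were at 0 and Il23a had at most 2 reads.

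The p16 and control groups were then compared gene by gene. Of the 64 members tested, 3 were higher in p16 samples (Il34, Ccl20 and Il12rb2) and 1 was lower (Il31ra), by limma with Benjamini-Hochberg adjustment over all 12782 genes tested. Over all genes 1.24% were called higher and 2.61% lower. edgeR on the recovered reads called 3 members higher and 0 lower of 44 it tested (1.50% and 2.79% of all genes), having filtered out Il31ra, and DESeq2 called 3 and 1 (1.23% and 2.31% of all genes). Where the limma p was under 0.05 before adjustment, 14 members were higher and 3 lower, or 21.9% and 4.69% of those tested, against 7.02% and 8.93% of all genes. Groups did not overlap for 7 members that were higher and 2 that were lower in p16 samples, where 4.19% and 5.63% of all genes did so. The median log2 fold change (p16 minus control) was 0.15 over the tested members and -0.0027 over all genes, and 65.6% of members and 49.6% of genes had a value above 0. Among 44 tested interleukins, growth factors and their receptors the median was 0.21, and it was -0.03 over the 20 tested chemokines and chemokine receptors. These shares and medians describe the list and carry no test.

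**Figure D2:**
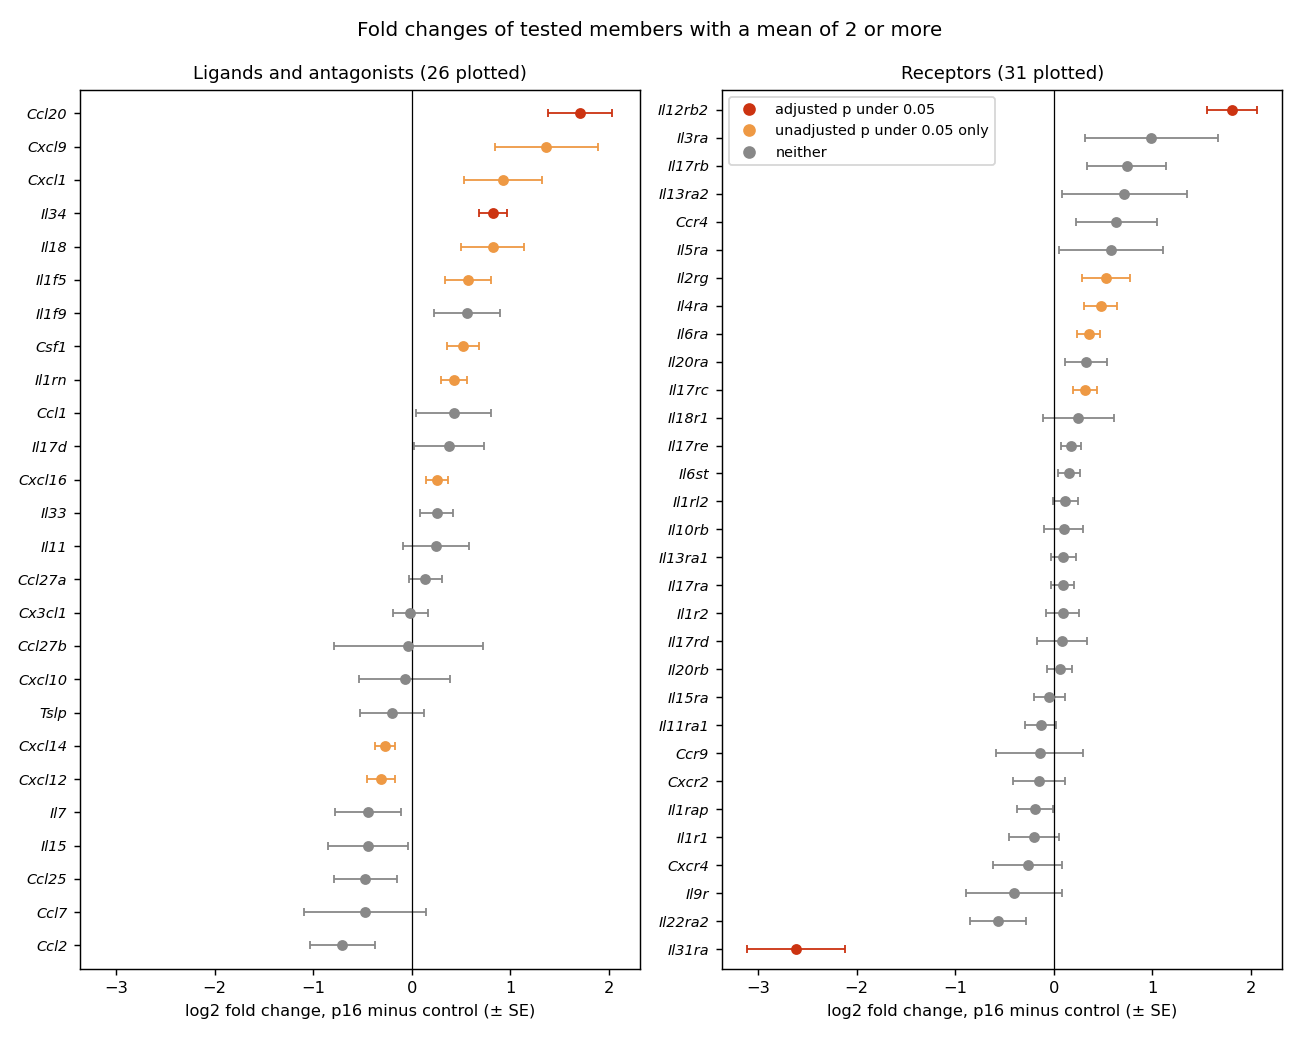
The log2 fold change (horizontal axis, p16 minus control) with its standard error as the bar, for the 26 ligands and antagonists and 31 receptors that were tested and had a mean of 2 or more over the 8 samples, coloured by whether the adjusted or only the unadjusted limma p was under 0.05. Il12rb2 and Il31ra stand at the 2 ends of the receptors, with 1.80 and -2.61.

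Among the ligands, Il34 and Ccl20 rose. IL-34 is a ligand of the CSF-1 receptor that keratinocytes are known to make and on which Langerhans cells depend. Its normalized read counts (ENSMUSG00000031750, chromosome 8 of GRCm38, 110741829 to 110805924) were 89.8, 68.0, 65.1 and 65.7 in the control samples, in the order of their replicate numbers as in all such lists, and 136.7, 132.7, 128.6 and 112.6 in the p16 samples. The lowest p16 sample lay above the highest control sample, which was control replicate 1. The group means were 72.2 ± 11.8 and 128 ± 10.6 (SD, n = 4 each), a 1.77-fold difference with a log2 fold change of 0.82 (SE 0.14, limma adjusted p = 0.00371). The log2 fold change was 0.79 when the library labelled p16 replicate 1 was omitted (limma adjusted p = 0.0200).

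Csf1, which encodes the other ligand of that receptor, pointed the same way without passing the test. It had 49.7, 37.2, 49.3 and 44.3 in control samples and 60.8, 60.9, 79.8 and 59.2 in p16 samples. The groups did not overlap, and p16 replicate 3 stood above the other p16 samples. The log2 fold change was 0.52 (SE 0.16, limma adjusted p = 0.108). Csf1r itself had 3 reads or fewer in every sample, so the receptor of both ligands was not detectable in the sorted cells at this depth. Csf2 was at 0 in all samples and Csf3 had 1 read in a single control sample. The Langerhans cell marker Cd207 ran from 0 to 0.80 in control and from 1.80 to 4.70 in p16 samples, 6 reads at most (log2 fold change 1.56, limma adjusted p = 0.0922), and Ltc4s from 0 to 0.80 and from 0.90 to 3.20 (log2 fold change 1.14, limma adjusted p = 0.271). Of the 10 Langerhans and dendritic markers 9 were read above the limit, and they summed to between 2850 and 3653 in control and between 2503 and 2655 in p16 samples. Most of that sum was Cst3, which many cell types express (2567 to 3266 and 2261 to 2451), and Mfge8 was the one marker called (119.4 to 229.7 and 21.4 to 47.6, lower, limma adjusted p = 8.49e-05). Their part in the result was not tested.

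**Figure D3:**
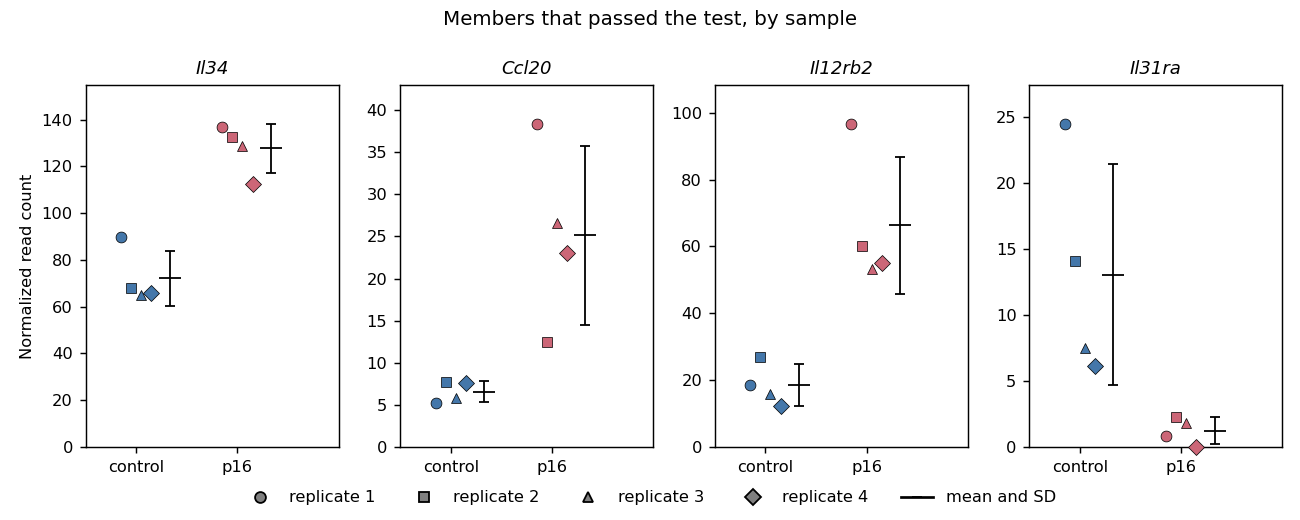
Normalized read counts (vertical axis) of the 4 members that passed the test in each control and p16 sample, with marker shape for the replicate number and a bar for mean and SD. For each of Il34, Ccl20, Il12rb2 and Il31ra the 2 groups do not overlap, and Il31ra is at 0 in p16 replicate 4.

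Ccl20 was the one chemokine that passed the test. It attracts cells that carry CCR6, among them IL-17-producing T cells. Its values (ENSMUSG00000026166, chromosome 1, 83116766 to 83119167) in control samples were 5.2, 7.7, 5.8 and 7.6, which is 5 to 7 reads per library, and in p16 samples they were 38.4, 12.5, 26.6 and 23, or 16 to 48 reads. Every p16 sample exceeded every control sample, and the library labelled p16 replicate 1 was the highest. The log2 fold change was 1.70 (SE 0.32, limma adjusted p = 0.00854). Omitting the library labelled p16 replicate 1 gave 1.47 (limma adjusted p = 0.0418), and omitting both samples numbered 3 gave 1.59, which no longer passed (limma adjusted p = 0.0778). Ccr6 was at 0 in all 8 samples.

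Upstream sequences were sought for the called ligands, Il34 and Ccl20, and for the CXC chemokines Cxcl1 and Cxcl9. No window was available for Il34, so those of Ccl20, Cxcl1 and Cxcl9 are shown. These inflammatory ligands had the highest fold changes among the tested chemokine ligands and are known targets of NF-κB or interferon signalling. Each is the 250 bases before the transcript start in RefSeq's GRCm38.p6 annotation, written 5′ to 3′ on the strand of the gene. Capitals mark matches, on either strand, to GGGNNNTTCC, a form of the NF-κB motif in which N is any base. Ccl20 lies at chr1:83116516-83116765 on the plus strand, Cxcl1 at chr5:90890995-90891244 on the plus strand and Cxcl9 at chr5:92328080-92328329 on the minus strand.
Ccl20: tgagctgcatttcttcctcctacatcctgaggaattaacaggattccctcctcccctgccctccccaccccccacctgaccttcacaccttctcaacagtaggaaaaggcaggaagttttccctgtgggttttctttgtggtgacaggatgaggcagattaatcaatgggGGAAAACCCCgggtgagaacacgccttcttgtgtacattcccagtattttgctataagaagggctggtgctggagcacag
Cxcl1: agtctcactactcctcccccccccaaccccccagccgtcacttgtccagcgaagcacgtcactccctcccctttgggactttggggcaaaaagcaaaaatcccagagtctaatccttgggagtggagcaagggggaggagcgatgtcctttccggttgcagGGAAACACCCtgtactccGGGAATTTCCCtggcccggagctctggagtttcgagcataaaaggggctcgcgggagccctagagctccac
Cxcl9: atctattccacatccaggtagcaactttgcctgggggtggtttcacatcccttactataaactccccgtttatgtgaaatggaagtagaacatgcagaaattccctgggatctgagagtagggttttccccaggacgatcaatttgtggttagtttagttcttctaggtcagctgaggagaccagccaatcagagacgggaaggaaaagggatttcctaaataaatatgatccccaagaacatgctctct
The Ccl20 window held 1 match, GGGGTTTTCC on the minus strand, 80 to 71 bases before the start. In Cxcl1 there were 3 matches, of which GGGAATTTCC on the plus strand and GGGAAATTCC on the minus strand cover nearly the same bases. The Cxcl9 window held no match, and none of the 3 windows held the STAT motif TTCNNNGAA or the AP-1 motif TGANTCA on either strand. Over the 250 bases upstream of all 27025 genes with a window, 4.60% held the NF-κB form, 7.18% the STAT motif and 6.87% the AP-1 motif. Of the 99 family entries with a window the shares were 15.2%, 10.1% and 16.2%. Of the 33 among them with a read in each sample and a mean of 10 or more, they were 15.2%, 12.1% and 9.09%. A match describes letters and is no measurement of binding. Other forms of these motifs, and interferon response elements, were not searched, so a window without a match may still hold them.

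Cxcl1, a neutrophil attractant, was low in both groups. It had 3.7, 2.6, 5 and 3.1 in control samples and 4, 5.5, 10.6 and 13.2 in p16 samples. The library labelled p16 replicate 1 lay within the control range and the other p16 samples above it (log2 fold change 0.92, SE 0.40, limma adjusted p = 0.265). Its receptor Cxcr2 had the most reads among the chemokine receptors of the family, between 8.20 and 14.1 in all samples. The log2 fold change was -0.15 (SE 0.27, limma adjusted p = 0.856). Outside the family rule, the chemokine receptors Ackr4, Ackr3 and Ackr2 had more, at 608.9 to 858.6, 42.8 to 141.4 and 29.2 to 67.1. The neutrophil attractants Cxcl2 and Cxcl5, related to Cxcl1, were at 0 and Cxcl3 at 3 reads or fewer.

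Cxcl9 and Cxcl10 are both interferon-inducible ligands of CXCR3, and neither passed the test. Cxcl9 had 4.5, 5.1, 10 and 19.9 in control samples and 30.4, 44.5, 30.1 and 6.6 in p16 samples. In 3 p16 samples it exceeded every control sample, whereas p16 replicate 4 fell inside the control range. The log2 fold change was 1.36 (SE 0.52, limma adjusted p = 0.200), and it was 1.92 without p16 replicate 4 (limma adjusted p = 0.0123). By edgeR without a filter on low counts it was called with all 8 samples (edgeR adjusted p = 0.0451). Cxcl10 had 24.5, 21.8, 11.7 and 58.1 in control samples and 41.6, 32.8, 23.9 and 9 in p16 samples. Here too replicate 4 was the extreme of each group, highest in control and lowest in p16, and the groups overlapped (log2 fold change -0.07, SE 0.46, limma adjusted p = 0.968). Art3, a gene called higher in p16 samples (log2 fold change 1.74, limma adjusted p = 0.00831), overlaps Cxcl10 on the opposite strand, and whether reads were counted by strand is not given in the sources used here. Cxcr3 was at 0 in every sample, and so was Ifng, which encodes interferon gamma.

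**Figure D4:**
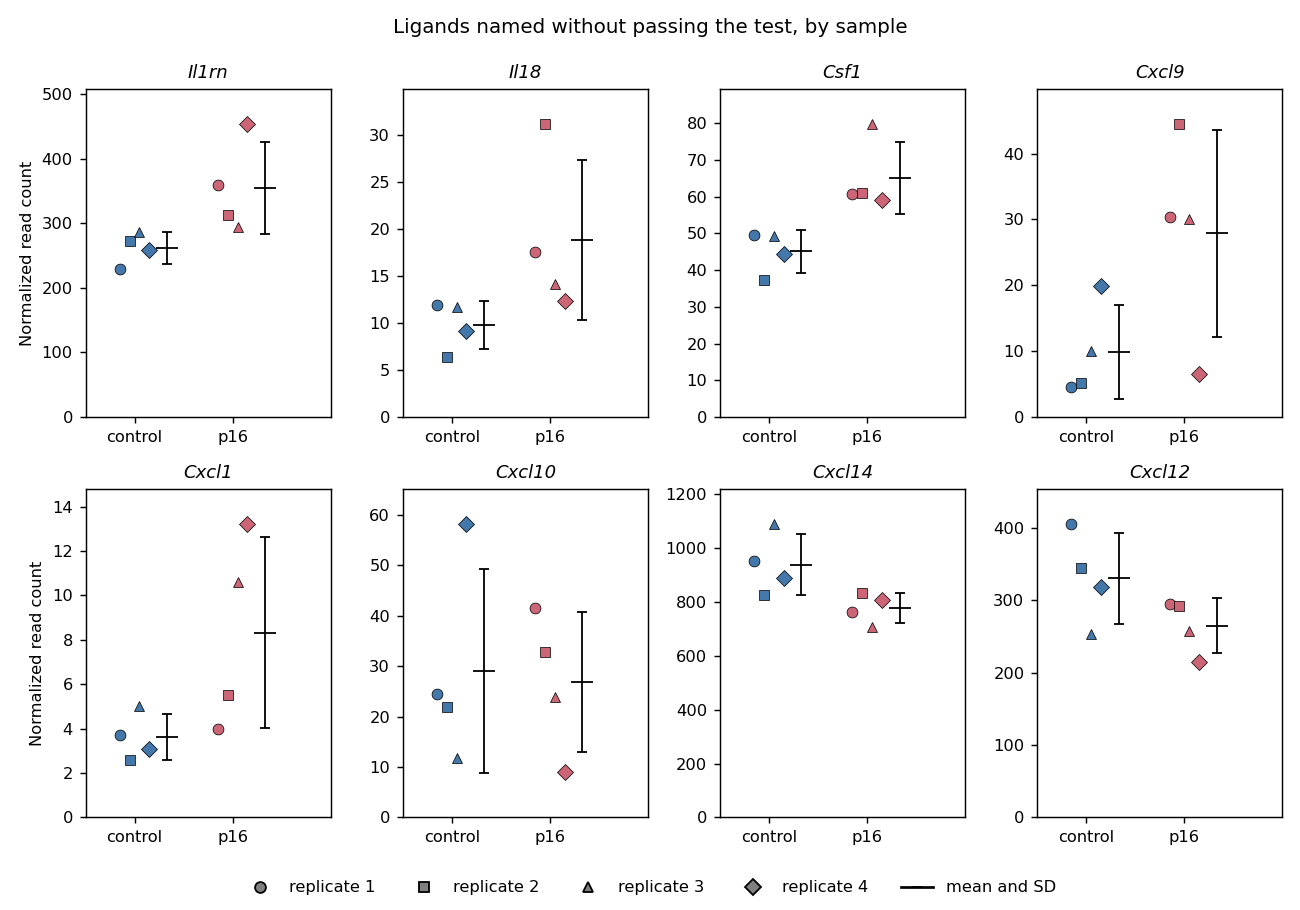
Normalized read counts (vertical axis) of 8 ligands and antagonists that are named without having passed the test, in each control and p16 sample, with mean and SD. Il1rn, Il18 and Csf1 separate the groups, while for Cxcl9 and Cxcl10 replicate 4 is the highest control and the lowest p16 sample.

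The chemokines with the most reads were those that resting epidermis is known to make, and none of them passed the test. Ccl27a, a skin-homing signal for T cells with CCR10, had 1430, 1154, 969 and 1241 in control samples and 1821, 1437, 1003 and 1099 in p16 samples. The ranges overlapped (log2 fold change 0.13, SE 0.17, limma adjusted p = 0.776). Its near-identical copy Ccl27b had 399.8, 436.3, 376.7 and 51.9 in control samples and 598.1, 275.6, 473.5 and 39.5 in p16 samples. Replicate 4 was several times lower than the rest in both groups, and how reads were divided between these copies is uncertain. The sum of both genes was 1514 ± 247 in control and 1687 ± 543 in p16 samples (SD, n = 4 each; two-sided exact permutation p = 0.657). Ccr10 had at most 2 reads.

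Cxcl14, made constitutively by keratinocytes, had 951.8, 827.8, 1088.3 and 889.2 in control samples and 762.8, 833.1, 706.7 and 805.8 in p16 samples. The p16 values were lower than every control value in 3 of 4 samples (log2 fold change -0.27, SE 0.10, limma adjusted p = 0.191). Cxcl12, the ligand of CXCR4 and of the scavenging receptor Ackr3, had a log2 fold change of -0.31 (SE 0.14, limma adjusted p = 0.305), with 253.9 to 405.0 in control and 214.6 to 295.0 in p16 samples. Cxcr4 stayed at 4.90 to 14.1. Ackr3 had 49.7, 50.1, 52.6 and 42.8 in control samples and 84.0, 51.5, 62.1 and 141.4 in p16 samples, where p16 replicate 2 lay within the control range (log2 fold change 0.68, SE 0.25, limma adjusted p = 0.172).

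Cxcl16, a membrane-bound ligand of CXCR6, ran from 238.3 to 293.2 in control and from 277.9 to 354.2 in p16 samples (log2 fold change 0.26, SE 0.11, limma adjusted p = 0.255). It overlaps Zmynd15 on the opposite strand, whose own log2 fold change was 1.06 (SE 0.29, limma adjusted p = 0.0645). Cx3cl1 ranged from 84.4 to 145.0 in control and from 82.5 to 130.7 in p16 samples, with a log2 fold change of -0.02. The monocyte attractant Ccl2 had 129.8 in control replicate 1 and 41.3 to 48.4 in the other control samples, against 22.2 to 53.9 in p16 samples (log2 fold change -0.70, SE 0.33, limma adjusted p = 0.317). Ccr2, its receptor, was at 0.

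In the IL-1 family, 7 of 8 tested ligands and antagonists had positive fold changes, where 49.6% of all genes did. The 7 include Il1b and Il1f8, with 7 and 4 reads at most. Of the 8, 3 were higher at an unadjusted limma p under 0.05, against 7.02% of all genes. None passed the test, and these counts carry no test. Il1rn, the IL-1 receptor antagonist, had the most reads of the 8, with 229.2, 272.1, 286.5 and 258.2 in control samples and 359.0, 313.1, 294.4 and 453.9 in p16 samples. Each p16 value lay above the highest control value (log2 fold change 0.42, SE 0.13, limma adjusted p = 0.101). With all libraries thinned to the depth of the smallest, the limma adjusted p was 0.0354.

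Il18, stored as a precursor in keratinocytes, had 11.9, 6.4, 11.7 and 9.2 in control samples and 17.6, 31.2, 14.2 and 12.3 in p16 samples. The groups did not overlap, though p16 replicate 4 was close to the highest control value (log2 fold change 0.82, SE 0.32, limma adjusted p = 0.207). Il18bp, the soluble inhibitor of IL-18, lay the other way, with 2.2 to 3.1 in control and 0.8 to 1.6 in p16 samples, but these are 3 reads or fewer per library. Il1f5, the antagonist of the IL-36 receptor, ran from 22.9 to 46.2 in control samples and was at 60.0, 60.9 and 61.2 in p16 replicates 1 to 3 and at 39.5 in p16 replicate 4 (log2 fold change 0.57, SE 0.23, limma adjusted p = 0.228).

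The alarmin Il33 was at 158.8 to 266.9 in control and 215.5 to 303.4 in p16 samples (log2 fold change 0.25, SE 0.17, limma adjusted p = 0.513). Il1a, a classical keratinocyte cytokine, had no read in any control sample and 1 or 2 reads in each p16 sample, which is under the limit in both groups. Il1b reached 7 reads in p16 replicate 2 and 2 reads at most in control samples. Its log2 fold change was 0.99 with a standard error of 0.62 (limma adjusted p = 0.485). Il6 was at 0 in all 8 samples.

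Among the receptors of this family, the decoy receptor Il1r2 ran from 425.1 to 632.7 in control and from 432.7 to 762.2 in p16 samples, and the signalling receptor Il1r1 from 20.9 to 37.1 and from 19.5 to 40.8. Il1rl2, the IL-36 receptor chain, and the shared chain Il1rap were both read in every sample, at 106.9 to 150.3 and 74.9 to 139.9 over the 8 samples. Il1rl1, through which IL-33 signals, had at most 1 read in any sample.

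The one receptor that rose was Il12rb2, one of the pair of chains of the IL-12 receptor, which is best known from T and natural killer cells. It had 18.5, 27, 15.9 and 12.2 in control samples (ENSMUSG00000018341, chromosome 6, 67291318 to 67376188) and 96.7, 60.1, 53.2 and 55.1 in p16 samples. All p16 samples lay at about double the highest control sample or above it, and the library labelled p16 replicate 1 was the highest. The means were 18.4 ± 6.29 and 66.3 ± 20.5 (SD, n = 4 each). This 3.60-fold difference gave a log2 fold change of 1.80 (SE 0.26, limma adjusted p = 0.000971). Omitting the library labelled p16 replicate 1 gave 1.61 (limma adjusted p = 0.00529), and the adjusted p stayed under 0.05 in all 19 alternatives, 0.0102 at most.

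The other chain of that receptor, Il12rb1, had at most 2 reads, and both subunits of IL-12 were at 0. Of the 11 T cell markers in the files, 4 exceeded the limit in some sample, with the sums given above. Cd3d was at 7.6 to 15 in control and 1.8 to 7.4 in p16 samples (log2 fold change -1.07, limma adjusted p = 0.172). Cd3g pointed the other way, with 0 to 2.2 and 0 to 6.2 (log2 fold change 0.89, limma adjusted p = 0.556). Lck and Cd7 had log2 fold changes of -0.45 (limma adjusted p = 0.828) and -0.11 (limma adjusted p = 0.947). Cd3e was at 3.90 or less. The part of these markers in the result was not tested. The last exon of both annotated Il12rb2 transcripts, from 67292018 or 67291318 to 67292736 on the minus strand, lies inside the last exon of a Serbp1 transcript (67283903 to 67297736) on the plus strand. With counting by strand not given, reads of these genes cannot be told apart with certainty there. Serbp1 had 1483 to 1847 over the 8 samples, with a log2 fold change of -0.03 (SE 0.10, limma adjusted p = 0.917).

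Il31ra was the one member that fell. It pairs with the oncostatin M receptor to form the receptor of IL-31, an itch cytokine of T cells. It had 24.5, 14.1, 7.5 and 6.1 in control samples (ENSMUSG00000050377, chromosome 13, 112519898 to 112594360), from 33, 11, 9 and 4 reads, and 0.8, 2.3, 1.8 and 0 in p16 samples, from 1, 3, 2 and 0 reads. All p16 samples were at or under the 3-read limit and all control samples above it. The ratio of control to p16 from summed reads was 11.6, with a 95% interval of 5.03 to 33.0 that covers counting error only. On the log2 scale it fell by 2.61 (SE 0.50, limma adjusted p = 0.00837). Without control replicate 1, which held 33 reads, the limma adjusted p was 0.0423, and omitting the library labelled p16 replicate 1 gave -2.56 on that scale (limma adjusted p = 0.0285). Osmr, the partner chain, was at 34.9 to 53.9 in control and 41.6 to 55.0 in p16 samples (log2 fold change 0.11, SE 0.18, limma adjusted p = 0.846), and Il31 was at 0. The 7 melanocyte markers, 6 of them read above the limit, also moved, from a sum between 131 and 530 in control to between 51.7 and 143 in p16 samples with Dct and Tyrp1 called lower, alongside the hair follicle markers given above, and their part in the result was not tested.

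The remaining receptors included several with many reads, and none of them passed the test. Il6ra, the IL-6 receptor, had 387.2, 403.0, 426.0 and 313.2 in control samples and 566.9, 477.0, 470.8 and 437.4 in p16 samples. The groups did not overlap (log2 fold change 0.35, SE 0.11, limma adjusted p = 0.121). Its signal-transducing partner Il6st ran from 187.1 to 241.4 in control and from 227.2 to 258.9 in p16 samples, with a log2 fold change of 0.16 (SE 0.11, limma adjusted p = 0.551). Il11ra1, the IL-11 receptor, had 352.5 to 583.8 and 387.5 to 559.0, and Il11 itself was at 5.80 to 17.2 over all samples.

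Of the IL-17 receptor chains, Il17rc had 264.8, 268.2, 357.5 and 368.2 in control samples and 401.4, 369.3, 359.1 and 421.8 in p16 samples. Only p16 replicate 3 lay within the control range (log2 fold change 0.32, SE 0.12, limma adjusted p = 0.210). Its partner Il17ra, at 167.9 to 214.3 over the 8 samples, had a log2 fold change of 0.09, and Il17re, the chain for epithelial IL-17C, one of 0.17 from 249.0 to 317.4. None of the 5 IL-17 receptor chains passed the test.

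The chains for IL-4 and IL-13 were both read in every sample. Il4ra had 81.6, 78.3, 110.2 and 108.5 in control samples and 166.3, 121.0, 102.9 and 139.0 in p16 samples (log2 fold change 0.47, SE 0.17, limma adjusted p = 0.155). Il13ra1 was at 227.6 to 326.6 over the 8 samples, with a log2 fold change of 0.09. Il2rg, the common gamma chain, had 49.0, 41.1, 34.2 and 33.6 in control samples and 74.4, 51.5, 78.9 and 34.5 in p16 samples. As with Cxcl9, p16 replicate 4 lay in the control range (log2 fold change 0.53, SE 0.24, limma adjusted p = 0.296), and without it the log2 fold change was 0.77 (limma adjusted p = 0.0425). Both chains of the IL-20 receptor were present, Il20rb at 482.2 to 714.5 and Il20ra at 47.4 to 120.9, while Il20 and Il22 were at 0 and Il24 was at 6 reads or fewer.

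**Figure D5:**
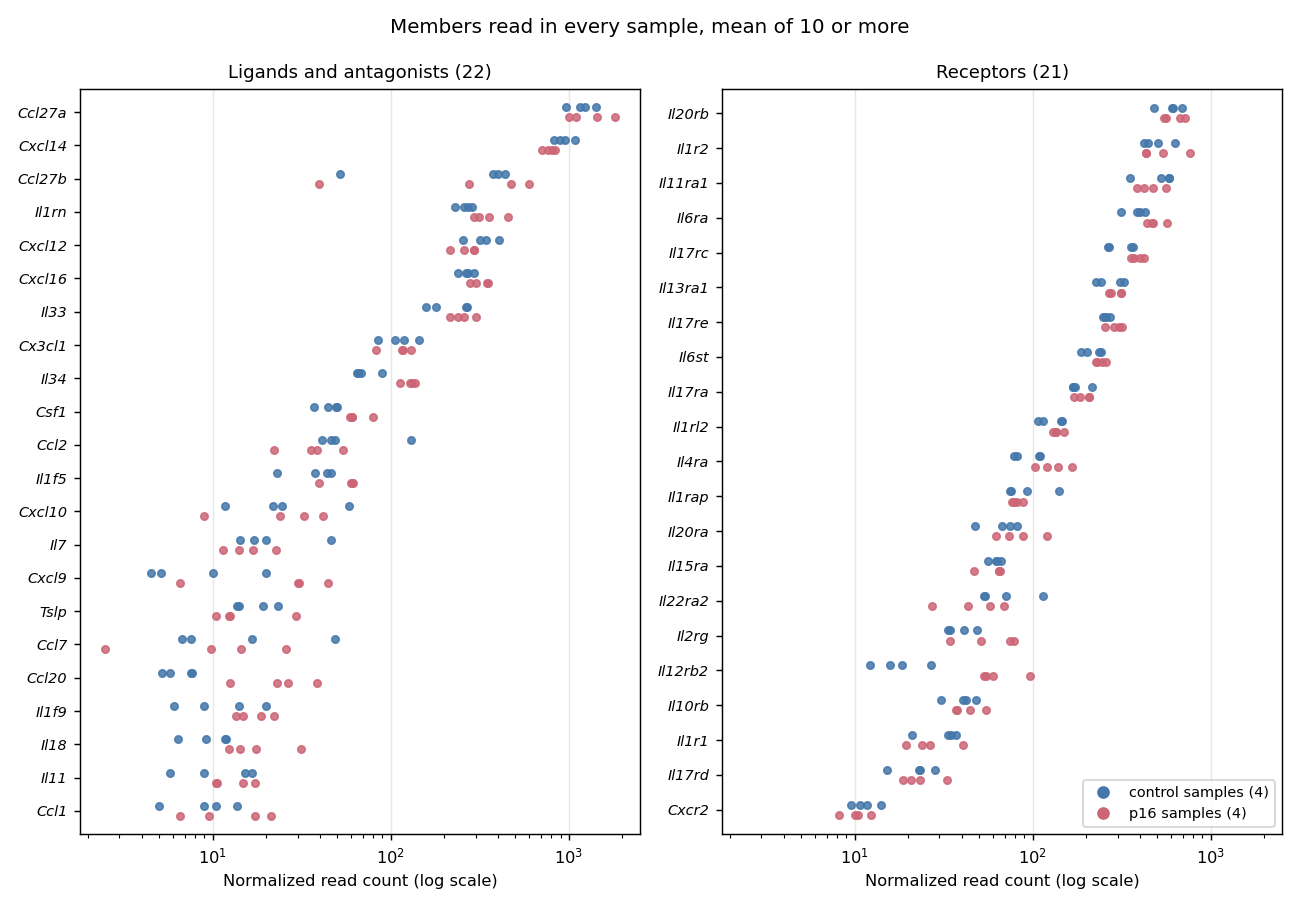
Normalized read counts (horizontal axis, log scale) of the 43 members read in every sample with a mean of 10 or more, 1 dot per sample, ordered by mean within ligands and receptors. Most pairs of dot clouds overlap, and the wide spread of Ccl27b comes from replicate 4 of each group.

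The ligands at 0 in all samples included those of lymphocytes (Il4, Il5, Il9, Il10, Il17a, Il21 and Il31), of myeloid cells (Il12a, Il12b, Il27, Ccl3 and Ccl24). The lymphoid tissue chemokines Ccl19 and Ccl21a were listed at 0 as well, with the limit on copied genes given above. The attractants Ccl5, Ccl17 and Ccl22 had 1 read at most in any sample. Of the growth factors for lymphocytes and dendritic cells, Il7 was at 11.5 to 46.2, Il15 at 3.10 to 14.2 and Tslp at 10.4 to 29.6, with no difference that passed the test. The TSLP receptor chain Crlf2 was at 40.1 to 61.7 and its partner Il7r had at most 1 read. Besides Il31ra, Il17b exceeded 3 reads in control samples only and Il24, Il1b, Il1f8, Il2, Ccl6 and Ccl8 did so in p16 samples only, and each of these stayed at 7 reads or fewer. The groups were not matched in depth for this count. In control replicates 2 and 4, 3 reads were worth 3.85 and 4.58 units, against 2.34 to 2.66 in p16 samples.

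Other genes of these pathways, taken from lists of partner receptors, related ligands, JAK-STAT and NF-κB signalling, IL-1 processing and control of cytokine mRNA, were tested too. Of 83 tested, 1 was called higher and 0 lower in p16 samples by limma (0 lower by edgeR and DESeq2 as well), against 1.24% higher and 2.61% lower among all genes tested. Where the p was under 0.05 before adjustment, 11 were higher and 3 lower, against 7.02% and 8.93% of all genes. The called gene was Map3k14, the NF-κB-inducing kinase of the non-canonical pathway, with 17.1, 16.7, 20 and 15.3 in control samples and 48.8, 30.4, 24.8 and 37.0 in p16 samples. The groups did not overlap (log2 fold change 0.95, SE 0.23, limma adjusted p = 0.035), but no pathway gene was called higher when any single control sample, the library labelled p16 replicate 1 or p16 replicate 4 was left out. Nfkb2 and Relb, which act below it, had log2 fold changes of 0.27 (limma adjusted p = 0.341) and 0.17 (limma adjusted p = 0.687). Tnf had at most 3 reads in any sample.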

How the data were processed

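Gene expression was measured by RNA-seq of 3′ ends in GFP+ keratinocytes, and samples were grouped by their labels. The authors prepared libraries with an adapted CEL-Seq2 protocol (the labels of replicate 3 of both groups word it differently), trimmed reads with Cutadapt and aligned them to GRCm38 with TopHat2, and the submitters' processing notes also name HTSeq and DESeq2. Counter settings, annotation and use of molecular identifiers are not given in the sources used here. The deposited signal values are reads per gene divided by a size factor per library and rounded to 1 decimal. Dividing by the value of 1 read gave whole reads for 100% of values (within 0.06 units). The authors also deposited a mean signal per group, a log2 ratio, a test score (the Wald statistic), a p-value and an adjusted p-value for each gene, which were not used.

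Values were tested as log2(value + 1) with limma 3.58.1 (eBayes with trend, R 4.3.3) for the 12782 genes with a mean of at least 1, after the script had been tested on simulated data. P-values were adjusted by Benjamini-Hochberg, and a gene was called at an adjusted p under 0.05. Fold changes on this scale understate those of low genes. Count tests on the recovered reads (edgeR 4.0.16, 10700 genes; DESeq2 1.42.0) were alternatives. With 4 samples against 4, a two-sided exact permutation test cannot go below 0.0286. The paper states that each group's replicates came from fewer independent experiments than there were replicates, and that control and experimental mice were siblings kept together. Which mice or experiment a pool came from is not given by the labels, so the fit held no term for it. The p-values measure only the spread between these pools. Members and lists were chosen with earlier results of these data known. Named members were those called, those with an unadjusted p under 0.05 or non-overlapping groups, and the 15 with the most reads. A textbook list of keratinocyte cytokines and receptors of the named ligands were added. The other members named for their level or absence, and Ackr2, Ackr4, Nfkb2, Relb, Art3, Zmynd15, Serbp1 and Actr8, were chosen after their values were seen. Gene positions are from GENCODE M21. One member is not reported here by name.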

Additional observations from a re-analysis of the deposited data

Results flagged for a closer look

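Of 54 checks for a single sample far from the other 3 of its group, 5 met Dixon's 95% limit, where chance gives about 1 in 20. Ccl27b was at 51.9 in control replicate 4, far below the other control samples, and p16 replicate 4 was low as well, at 39.5. Il34 was at 89.8 in control replicate 1, the control sample nearest to the p16 group. Csf1 stood out at 79.8 in p16 replicate 3. Il1f5 was at 39.5 in p16 replicate 4, below the other p16 samples. Il12rb2 was at 96.7 in the library labelled p16 replicate 1, above the other p16 samples.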

How the results depend on the processing

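Il34, Il12rb2, Ccl20 and Il31ra stayed under an adjusted p of 0.05 in every alternative in which each could be tested, except Ccl20 with replicate 3 of both groups left out (log2 fold change 1.59, adjusted p 0.0778). Il31ra was removed by the default filter of edgeR, so that 0 members were called lower there by TMM and by upper quartile scaling; without a filter edgeR called 1 and limma called 2 lower, the second being Cxcr5, chosen after its values were seen. Members called higher were 3 in most alternatives, 3 to 5 as single samples were left out (5 without p16 replicate 4, with Cxcl9 and Il2rg added), and 14 at unadjusted p, where 3 were lower. Cxcl9 also passed by edgeR without a filter and Il1rn after thinning. Pathway genes called higher ranged from 0 to 2 as single samples were left out, and lower from 0 to 1. They were 0 higher with no filter on low values, 3 by edgeR without a filter, 2 by DESeq2, and 11 higher and 3 lower at unadjusted p. The cause was not tested. With the replicate number as a block, 3 members were called higher and 1 lower as before, and 1 pathway gene lower, while over all genes 216 were called higher and 392 lower against 159 and 334. Deviations of same-numbered samples correlated by 0.055, 0.004, 0.046 and 0.083, against -0.0997 to 0.0580 for samples of different numbers. Whether the numbers pair the samples was not settled by these values. Small fold changes turned sign. Ccl27b went from -0.03 to 0.00038 by total count scaling, 0.11 by edgeR with TMM, upper quartile or no filter, and 0.13 by DESeq2, and ranged from -0.77 to 0.82 as single samples were left out. By the same omission Ccl27a ranged from -0.026 to 0.26, Il20rb from -0.042 to 0.13 and Il1r2 from -0.085 to 0.21. The 3-read limit and the depth of the smallest library bound what could be seen, and 57 members exceeded it after thinning, against 65.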
